A study of Mus musculus with 6 samples.

Results

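The genes described here encode the antibody classes made in the tumours and the proteins that carry antibody across an epithelium: the heavy chain constant genes IGHM, IGHD, IGHA, IGHG1, IGHG2B, IGHG2C and IGHG3, the kappa light chain constant gene IGKC, the joining chain JCHAIN and the polymeric immunoglobulin receptor PIGR. They were chosen by symbol, and all 10 were found among the 46937 symbols of the count table and passed the filter on low counts. No plasma cell transcription factor is among the 10, so plasma cell genes are given from a separate list. RNA had been read from 6 mouse lung squamous cell carcinoma biopsies, 3 of them PSC and 3 PSCN. Both groups carry constitutively active Pik3caH1047R, SOX2 overexpression and deletion of Cdkn2a/b, and PSCN tumours, labelled NSD3T1242A, express in addition a mutant of the histone methyltransferase NSD3, where PSC is labelled NSD3 WT. The strain, age, promoters and Cre drivers of the mice are not given in the sources used here, nor is it said that each biopsy came from its own mouse, so p-values measure the spread between these samples, which may be technical.

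A naive B cell carries IgM and IgD on its surface, spliced from one transcript of the rearranged heavy chain locus. Class switching then joins the same variable region to a gamma, epsilon or alpha constant gene, and plasma cells secrete the product in bulk. In the airway, IgA and some IgM are secreted as polymers held by the J chain, and PIGR on epithelial cells takes up these polymers and releases them into the lumen. PIGR is thus an epithelial gene, while the other 9 are expressed by B cells and plasma cells.

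The sequence that joins J chain lies at the end of the secreted IgM and IgA heavy chains, and the IgG chains lack it. The last 60 coding bases before the stop codon are shown for IgM and IgA and for an IgG that does not form such polymers, from GENCODE M21 transcripts on GRCm38, all on the minus strand of chromosome 12. Capitals mark the codon before the last one, a cysteine codon in IgM and IgA and a glycine codon in IgG1.
IGHM, chr12:113420870-113420929: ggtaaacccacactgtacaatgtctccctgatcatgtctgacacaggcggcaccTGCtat
IGHA, chr12:113258771-113258830: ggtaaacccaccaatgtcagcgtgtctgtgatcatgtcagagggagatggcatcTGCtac
IGHG1, chr12:113328979-113329038: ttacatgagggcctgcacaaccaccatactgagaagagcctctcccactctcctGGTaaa

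The heavy chain constant genes lie side by side on that chromosome, from IGHM (113418558 to 113422730) and IGHD (113406604 to 113416324) through IGHG3, IGHG1, IGHG2B and IGHG2C to IGHA (113254830 to 113260236). IGKC (70726435 to 70726966) lies on chromosome 6, JCHAIN (88519809 to 88527891) on chromosome 5 and PIGR (130826684 to 130852249) on chromosome 1. IGKC overlaps the noncoding gene GM30211 on the same strand, and what this does to its counts was not tested. No window of 76 bases, the read length, in IGHM, IGHD, IGHA or IGKC came within 3 mismatches of another constant gene. For IGHG2C the share of such windows close to IGHG2B was 22.3%, and for IGHG2B the share close to IGHG2C was 10.7%. By this measure the counts of that pair are the least certain among the 10 genes. Some mouse strains carry IGHG2A in place of IGHG2C, and the strain was not given.

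Total counts ran from 69563622 to 72807077 per library, and immunoglobulin genes took 0.253 to 0.696% of the counts in PSC and 0.0706 to 0.132% in PSCN. NSD3 stood at 79.6 to 101.6 CPM in PSC and 820.0 to 1930 CPM in PSCN, as labelled. PSC library 3 stood apart from its group: its log2 levels correlated on average at 0.941 with PSCN libraries and at 0.908 with the other PSC libraries, across 21201 genes that are not independent replicates. PSC libraries 2 and 3 came from female mice by XIST, and the other 4 from male mice by DDX3Y. The squamous markers KRT5, KRT14, TP63 and DSG3 were detected in all 6 libraries but were low in PSC library 1, where TP63 stood at 10.4 CPM (counts scaled to library size) against 80.2 to 240.0 CPM in the others. Fewer cells of a type and less RNA per cell cannot be told apart in bulk RNA.

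All 10 genes had lower fitted levels in PSCN than in PSC, and 7 of the 10 were lower in every PSCN library than in any PSC library: IGHM, IGHD, IGHA, IGHG2B, IGKC, JCHAIN and PIGR. Of all genes tested, 13.4% were separated in this way and direction. The same 7 had an unadjusted p under 0.05 with edgeR's quasi-likelihood test, a background of 12.2% of genes in this direction. None of the 10 passed the adjusted threshold of 0.05, which 0.00472% of genes did. With DESeq2, 7 of the 10 were called lower, the same 7, where 8.1% of all genes tested were, and limma-voom with sample quality weights called IGHM, IGHD, IGHA and JCHAIN, where 5.84% of genes were called lower. The median log2 fold change of PSCN over PSC was -1.93 over the 10 genes and -0.01 over all genes tested.

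**Figure D1:**
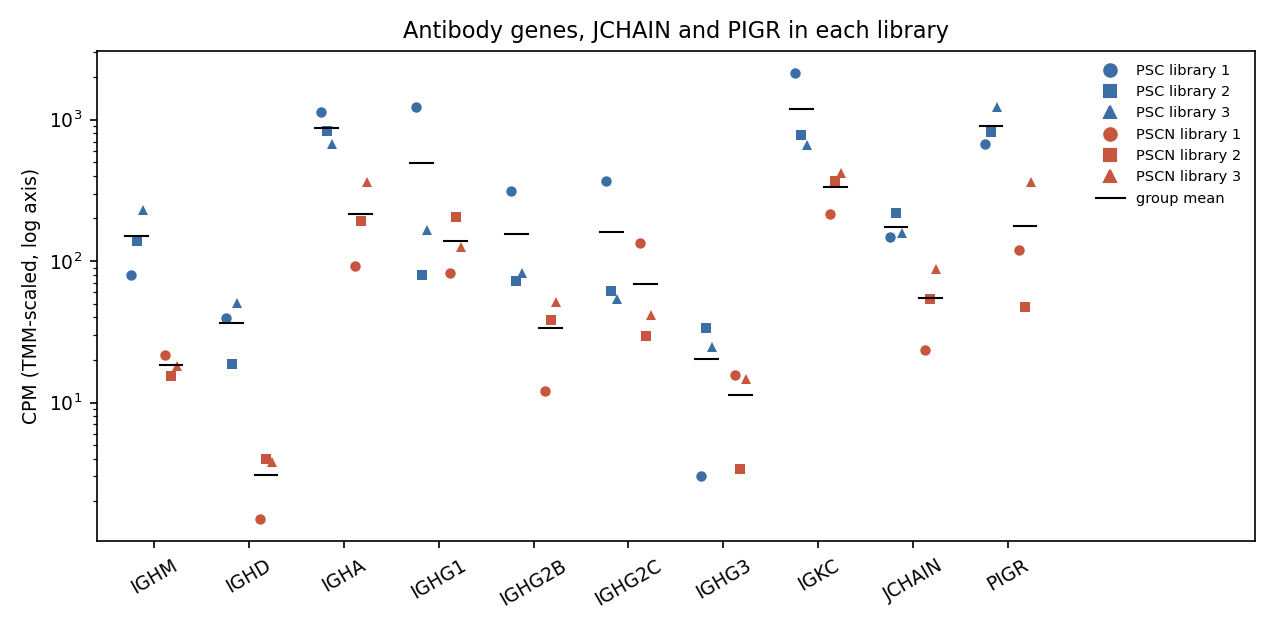
Level of each of the 10 genes in each library, in CPM on a log axis, with PSC in blue, PSCN in red and the mean of each group as a line. IGHM, IGHD, IGHA, IGHG2B, IGKC, JCHAIN and PIGR are lower in all PSCN libraries than in any PSC library, and IGHG1, IGHG2C and IGHG3 overlap between the groups.

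IGHM, the constant gene of IgM, had the smallest unadjusted p of the 10 genes (0.00036 with edgeR). It stood at 79.4, 138.6 and 231.5 CPM in the PSC libraries (given here and below in the order 1, 2, 3), against 21.5, 15.3 and 18 CPM in those of PSCN. The lowest PSC library was well above the highest PSCN library, and the PSCN values were close together. The log2 fold change was -3.03 (SE 0.42, n = 3 against 3, edgeR adjusted p = 0.137), a level 8.19 times lower. Without PSC library 3 it was -2.56, with an edgeR adjusted p of 0.0396. That was the lowest adjusted p when each library was left out in turn, and the highest was 0.421.

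IGHD, the constant gene of IgD, which marks mature naive B cells, was the lowest in PSCN relative to PSC. It stood at 39.5, 18.8 and 50.9 CPM in PSC, against 1.5, 3.98 and 3.78 CPM in PSCN, from 1426 to 3738 counts against 103 to 271 counts per library. The groups did not overlap, and the log2 fold change was -3.56 (SE 0.55, edgeR adjusted p = 0.138). Without PSC library 3 it was -3.22, with an edgeR adjusted p of 0.044. Here too this was the lowest adjusted p over libraries left out in turn, and the highest was 0.421. IGHM and IGHD were the only members called without PSC library 3, where 5.4% of all genes tested were called lower.

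IGHA, the constant gene of IgA and the main antibody of mucosal surfaces, stood at 1124, 824.7 and 677.5 CPM in PSC, against 92.3, 192.3 and 359.7 CPM in PSCN. Each PSC library lay above each PSCN library, by a narrower margin between PSC library 3 and PSCN library 3. The means were 875 ± 228 CPM and 215 ± 135 CPM (SD, n = 3 each), and the log2 fold change was -2.03 (SE 0.52, edgeR adjusted p = 0.187). It ran from -2.64 to -1.65 when each library was left out in turn, with edgeR adjusted p from 0.0744 to 0.438.

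The 4 IgG subclass genes varied more within PSC than the other members. IGHG1 stood at 1234, 79.2 and 166.3 CPM in PSC, against 82.9, 205.4 and 125.4 CPM in PSCN. PSC library 1 was far above every other library, and the remaining PSC and PSCN libraries were mixed. Its log2 fold change of -1.84 (SE 1.05, edgeR adjusted p = 0.339) became 0.17 without PSC library 1. IGHG2C behaved alike, with 366.1 CPM in PSC library 1 and 61.2 and 53.7 CPM in the other PSC libraries, against 134.0, 29.7 and 41.5 CPM in PSCN. Its log2 fold change was -1.23 (SE 0.95) with all libraries and 0.25 without PSC library 1.

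IGHG2B was the IgG gene whose groups did not overlap, with 312.4, 72.1 and 82.1 CPM in PSC, against 12.02, 38.3 and 51.0 CPM in PSCN. The log2 fold change was -2.20 (SE 0.79, edgeR adjusted p = 0.202), and -1.19 without PSC library 1. IGHG3 went the other way within PSC: PSC library 1 had the lowest level of all libraries at 3.03 CPM, against 33.4 and 24.8 CPM in the rest of PSC. The PSCN libraries had 15.6, 3.41 and 14.7 CPM, and the log2 fold change was -0.86 (SE 0.93, edgeR adjusted p = 0.602). It was -1.37 without PSC library 1 and -0.3 without PSC library 2. With sex as a covariate, which compares male libraries alone and leaves PSC library 1 as the only PSC male, IGHG3 was at 1.89, and IGHM at -2.12, IGHG1 at -3.16 and JCHAIN at -1.43, none of them past the adjusted threshold.

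**Figure D2:**
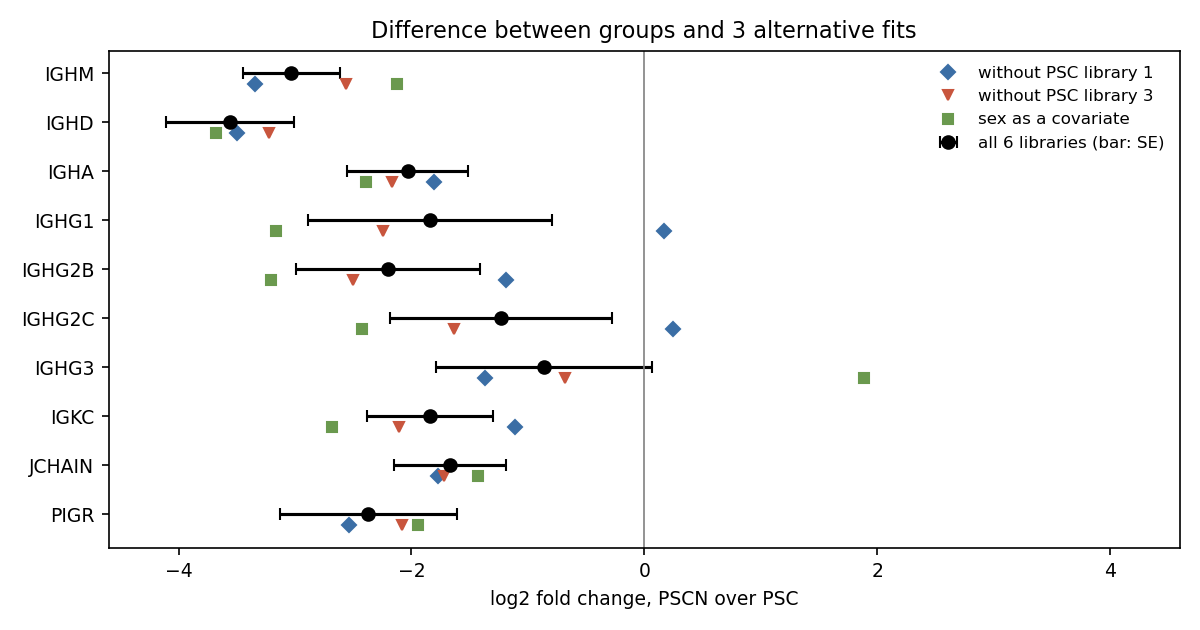
Log2 fold change of PSCN over PSC for each gene, with all 6 libraries (black, bar: SE), without PSC library 1 (blue), without PSC library 3 (red) and with sex as a covariate (green). IGHG1 and IGHG2C are above 0 without PSC library 1 and IGHG3 is above 0 with sex as a covariate, and the other genes are below 0 in each fit shown.

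IGKC, the constant gene of the kappa light chain that pairs with every heavy chain class, stood at 2135, 784.2 and 661.1 CPM in PSC, against 216.2, 367.2 and 418.2 CPM in PSCN. The groups did not overlap, with PSC library 1 more than any other. The log2 fold change was -1.84 (SE 0.54, edgeR adjusted p = 0.191) and -1.11 without PSC library 1. The lambda genes IGLC1, IGLC2 and IGLC3 were lower still: IGLC2 stood at 12.5, 7.62 and 6.71 CPM in PSC, against 0.58, 1.28 and 1.66 CPM in PSCN (log2 fold change -2.93, SE 0.50, edgeR adjusted p = 0.151). IGLC1 had 44.6 CPM in PSC library 1, against 2.98 and 2.19 CPM in the rest of PSC. Windows of IGLC3 came within 3 mismatches of another constant gene in 58.9% of cases and those of IGLC2 in 41.4%, so that pair is better read together.

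JCHAIN, whose product links IgA and IgM units and which plasma cells of each class can express, varied least among the PSC libraries. It stood at 148.6, 217.0 and 158.4 CPM in PSC, against 23.6, 53.5 and 87.9 CPM in PSCN. No PSCN library reached the lowest PSC library. The log2 fold change was -1.67 (SE 0.48, edgeR adjusted p = 0.191), and it ran from -2.19 to -1.29 when each library was left out in turn. The ratio of the highest to the lowest PSC library was 1.46 for JCHAIN and 15.6 for IGHG1.

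PIGR, the epithelial receptor for polymeric IgA and IgM, stood at 673.7, 822.5 and 1230 CPM in PSC, against 119.1, 47.3 and 361.5 CPM in PSCN. PSC library 3, the one closest to PSCN over all genes, had the highest level, and the groups did not overlap. The means were 909 ± 288 CPM and 176 ± 165 CPM (SD, n = 3 each), and the log2 fold change was -2.37 (SE 0.76, edgeR adjusted p = 0.194). It ran from -3.48 to -1.95 when each library was left out in turn. Airway secretory genes, expressed by cells that also make PIGR, were lower in PSCN as well: 11 of 12 had negative log2 fold changes, 9 of 12 had groups that did not overlap (background 13.4%), and the median was -3.92. Their summed level was 22500 to 30400 CPM in PSC, against 5940 to 12600 CPM in PSCN. In PSC library 3 and in every PSCN library most of that sum was LTF, a gene whose groups overlapped (log2 fold change -0.33, SE 0.78). LTF was at 18654 CPM in PSC library 3 and at 10585, 5362 and 10298 CPM in PSCN. The club cell gene SCGB1A1 was at 571.9 CPM in PSC library 3, below PSCN libraries 1 and 3 at 939.9 and 994.4 CPM. In PSC libraries 1 and 2 it was at 22200 and 10726 CPM. Ciliated cell genes summed to 463, 218 and 23.7 CPM in PSC, against 24.2, 11.7 and 38.0 CPM in PSCN. Of these, 6 of 6 had negative log2 fold changes and 1 of 6 had groups that did not overlap (background 13.4%). The part of airway secretory and ciliated cells in the difference of PIGR was not tested.

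The PIGR promoter is shown as the epithelial end of this pathway, because a conserved E-box of this gene is known to bind USF factors. The 250 bases before the RefSeq start site (GRCm38.p6, plus strand) hold 1 CACGTG, in capitals, which reads the same on both strands.
PIGR, chr1:130826434-130826683: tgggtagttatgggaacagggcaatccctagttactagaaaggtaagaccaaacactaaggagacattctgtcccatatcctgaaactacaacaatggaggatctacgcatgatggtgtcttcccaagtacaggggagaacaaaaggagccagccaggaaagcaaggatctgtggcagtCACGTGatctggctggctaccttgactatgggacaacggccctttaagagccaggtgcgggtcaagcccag
The match begins 71 bases before the start, and 6.02% of 32851 promoter windows of this length hold the motif. ATGCAAAT, the octamer of immunoglobulin promoters, and TGACGTGG, both searched on both strands, were not in this window nor in that of JCHAIN, and CACGTG was not in the latter. They occurred in 1.6 and 0.56% of windows.

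Levels of different genes were compared per kilobase of annotated exons. IGKC had the highest level in both groups, at 2240 ± 1540 CPM per kb in PSC and 628 ± 197 CPM per kb in PSCN (SD, n = 3 each), above every other member in each library. In PSC, IGHA followed at 328 ± 85.3 CPM per kb and PIGR at 226 ± 71.6 CPM per kb, with ranges that overlapped. IGHG1 (190 ± 248), IGHG2C (121 ± 134), IGHM (79.4 ± 40.7), JCHAIN (69.4 ± 14.7) and IGHG2B (58.1 ± 50.8 CPM per kb) came next, and no neighbours among them differed beyond their spread. IGHD, at 9.9 to 26.8 CPM per kb, lay just below the IGHG2B range, and IGHG3 at 1.21 to 13.3 CPM per kb overlapped IGHD. In PSCN, IGHM at 8.13 to 11.4 CPM per kb lay below all libraries of IGHG1 and IGHG2C, which it did not in PSC.

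Isotype shares ask whether the make-up of the antibody message differed, apart from its amount. They were taken as percent of the counts of the 8 heavy chain constant genes of each library, which were 93147 to 234436 counts in PSC and 24742 to 44062 in PSCN, and 13 shares and ratios were compared. With 3 libraries in each group, the exact permutation test has a smallest two-sided p of 0.1, and the smallest adjusted p over the 13 was 0.591, so none was past the threshold.

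IgA took 35.6, 67.1 and 52.6% of heavy chain counts in PSC and 25.6, 39.4 and 58.6% in PSCN, with groups that overlapped (exact permutation p = 0.5). IgG, its 4 subclasses summed, took 60.6, 20 and 25.4% in PSC and 67.8, 56.7 and 37.9% in PSCN (exact permutation p = 0.3). PSC library 1 had a make-up closer to PSCN libraries 1 and 2 than to the other PSC libraries in both classes. The difference in IgG share between PSCN and PSC was 18.8 percentage points with all libraries, 31.4 without PSC library 1, 11.1 without PSC library 2, 11.9 without PSCN library 1 and 7.42 with the counts of each group summed. For IgA it was -10.6 points, with -18.7 without PSC library 1, -2.92 without PSC library 2, -2.82 without PSCN library 1, -19.3 without PSCN library 3 and -1.96 with summed counts.

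IgM took 2.51, 11.3 and 18% in PSC and 5.97, 3.14 and 2.93% in PSCN. PSC library 1 had the smallest IgM share of all libraries, although its IgM level was above that of every PSCN library. Among the PSC libraries its IGHM was the lowest, while its IGHA, IGHG1, IGHG2B and IGHG2C were the highest. The 95% Wilson interval of its IgM share was 2.45 to 2.58%. That interval covers counting error only, so the spread lies between libraries and not in depth. IgD took 1.25, 1.53 and 3.95% in PSC and 0.416, 0.815 and 0.615% in PSCN. Without PSC library 3 the difference in share was -2.88 points for IgM, against -6.58 with all libraries, and -0.774 points for IgD, against -1.63. Without PSC library 1 that of IgM was -10.6 points, and with summed counts it was -4.17. IgD had the single heavy chain share whose groups did not overlap (exact permutation p = 0.1, the smallest possible, adjusted p = 0.591).

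**Figure D3:**
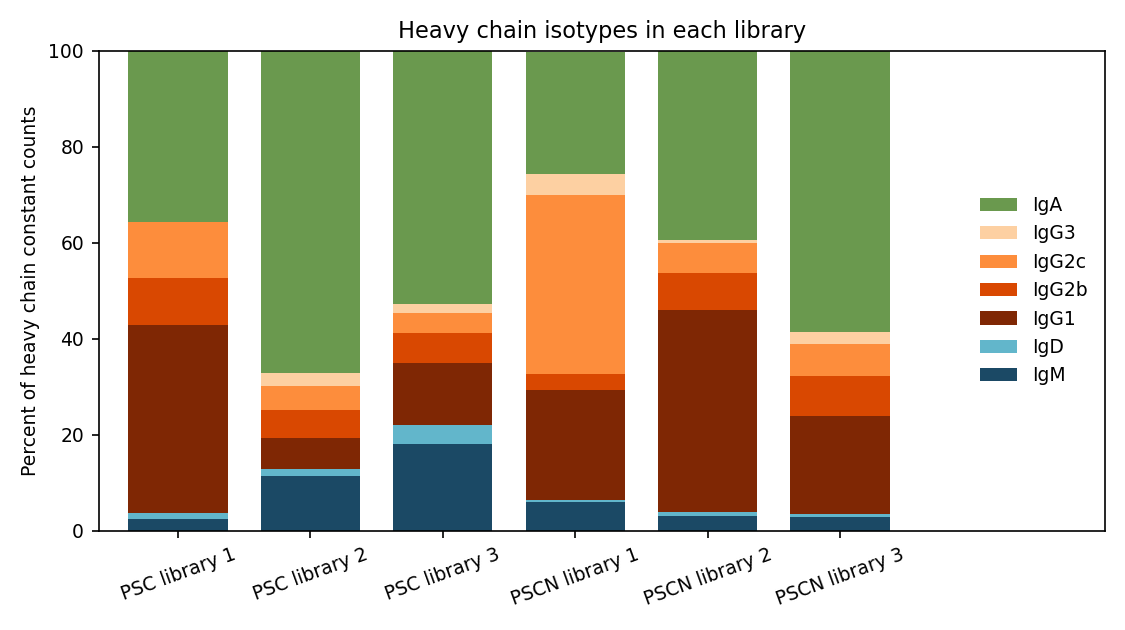
Share of each heavy chain class or subclass in the heavy chain constant counts of each library, stacked to nearly 100% (IgE, at most 0.154%, is not drawn). IgA runs from 25.6 to 67.1%, IgG1 is large in PSC library 1 and PSCN library 2, and IgG2c takes 37.2% in PSCN library 1.

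Among the subclasses, IGHG1 had the most IgG counts in 5 of the 6 libraries, and IGHG2C in PSCN library 1. These counts are not corrected for exon length, which is 2592 bases for IGHG1 and 1326 for IGHG2C. Per kilobase, IGHG2C was also above IGHG1 in PSC library 2, at 46.1 against 30.5 CPM per kb. IGHG1 made 64.4, 32.2 and 50.9% of IgG counts in PSC and 33.9, 74.2 and 53.9% in PSCN. IGHG2C made 54.8% in PSCN library 1 and 10.7 to 24.9% elsewhere, the lowest being PSCN library 2. IGHG3 made 13.6% in PSC library 2 and 0.158% in PSC library 1. IgE, from IGHE, was 0.154% of heavy chain counts at most, with 10 to 38 counts in PSCN and 38 to 178 in PSC.

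Kappa took 97.1, 98.3 and 97.9% of light chain constant counts in PSC and 99.1, 99.2 and 99.1% in PSCN. The groups did not overlap, and lambda was accordingly 1.71 to 2.91% in PSC and 0.755 to 0.895% in PSCN (exact permutation p = 0.1, adjusted p = 0.591). JCHAIN had 12.3, 22.5 and 17.4 counts per 100 counts of IGHM plus IGHA in PSC and 20.8, 25.8 and 23.3 in PSCN (exact permutation p = 0.2), a difference of 5.84 with groups that overlapped, which was 3.3 without PSC library 1 and 8.39 without PSC library 2. Heavy chain constant counts per 100 light chain constant counts were 144 to 191 in PSC and 132 to 165 in PSCN, a difference of -15.1 that was -1.23 without PSC library 3.

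Variable segments lie in the same transcripts as the constant genes, so their direction, which was the same, adds no independent evidence. IGHV segments summed to 324, 133 and 189 CPM in PSC, against 55.6, 55.3 and 95.4 CPM in PSCN. The segment with the most counts was IGHV8-8 in PSC library 1 (11.9% of IGHV counts), IGHV1-26 in PSC library 2 (8.94%) and IGHV3-6 in PSC library 3 (16.4%). It was IGHV1-81 in PSCN library 1 (23.8%), IGHV1-52 in PSCN library 2 (20.2%) and IGHV8-12 in PSCN library 3 (8.54%). No library shared its leading IGHV segment with another, but IGHV1-81 had rank 2 in PSC library 2 (7.88%) and PSC library 3 (11.6%). Similar segments can share reads. Among kappa segments, IGKV1-110 had the most counts in PSC libraries 2 and 3 and in PSCN library 1 (11.6, 15.3 and 20.9% of IGKV counts), and the other 3 libraries had different leaders.

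Plasma cell genes were mixed. Of 20 genes of a plasma cell list, 13 had negative and 7 positive log2 fold changes, 6 had groups that did not overlap in the lower direction (background 13.4%) and 5 in the higher (background 15.2%), and the median was -0.27. An unadjusted p under 0.05 was found for 4 lower genes (background 12.2%) and 3 higher genes (background 9.48%). The 4 lower genes were MZB1, POU2AF1, IRF4 and TNFRSF17. TNFRSF13B (log2 fold change -1.14, SE 0.74) and DERL3 (-1.25, SE 0.62) were also below 0, with groups that overlapped. MZB1, an endoplasmic reticulum protein that helps assemble IgM, stood at 22.9, 7.4 and 9.84 CPM in PSC, against 1.75, 2.12 and 3.04 CPM in PSCN (log2 fold change -2.54, SE 0.52, edgeR adjusted p = 0.173). POU2AF1, the coactivator of octamer factors at immunoglobulin promoters, stood at 28.8, 11.9 and 29.6 CPM in PSC, against 3.16, 5.03 and 6.27 CPM in PSCN (-2.28, SE 0.45). IRF4, a factor needed for plasma cell formation and also expressed in T cells, was at 13.7, 6.46 and 11.7 CPM against 1.69, 2.61 and 4.68 CPM (-1.82, SE 0.49). TNFRSF17, the BCMA receptor of long-lived plasma cells, had 34, 35 and 17 counts in PSC and 0 in each PSCN library, where a count of 0 allows up to 3.

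The best-known plasma cell factors, picked here for that role and not by their p, showed other values. XBP1, which drives the secretory apparatus, stood at 243.4, 234.2 and 243.6 CPM in PSC, against 206.7, 210.7 and 195.0 CPM in PSCN (log2 fold change -0.24, SE 0.13, edgeR adjusted p = 0.322), groups that did not overlap but lay close. PRDM1, which encodes Blimp-1, was at 17.2, 21.9 and 58.1 CPM in PSC, against 67.9, 87.3 and 59.4 CPM in PSCN (1.14, SE 0.49). SDC1, the plasma cell surface marker CD138, was at 306.6, 465.5 and 687.9 CPM in PSC, against 904.7, 1058 and 787.8 CPM in PSCN (0.91, SE 0.33). XBP1, PRDM1 and SDC1 are also expressed by epithelial cells, SDC1 strongly by squamous epithelium, and the summed level of the squamous markers was 249 to 4870 CPM in PSC, against 6300 to 19300 CPM in PSCN. The part of squamous cells in the levels of PRDM1 and SDC1 was not tested.

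**Figure D4:**
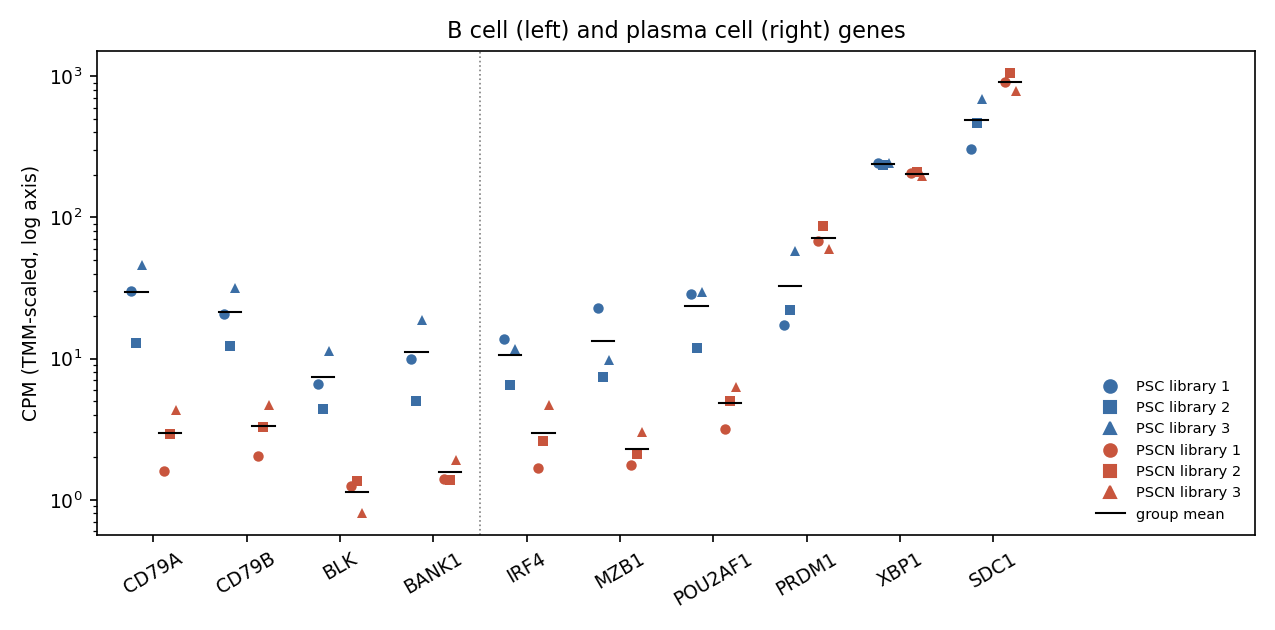
Levels of 4 B cell genes (left of the dotted line) and 6 plasma cell genes in each library, in CPM on a log axis, with PSC in blue, PSCN in red and group means as lines. The B cell genes, IRF4, MZB1 and POU2AF1 are lower in every PSCN library than in any PSC library, XBP1 is lower by a narrow margin, and PRDM1 and SDC1 are higher in every PSCN library.

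B cell genes were lower alongside the antibody genes. Of 22 genes, 20 had negative log2 fold changes, 16 had groups that did not overlap (background 13.4%) and 17 had an unadjusted p under 0.05 in this direction (background 12.2%), with 0 past the adjusted threshold of edgeR and a median of -2.5 (-1.99 without PSC library 3). CD79A, a signalling chain of the B cell receptor, stood at 29.98, 13.0 and 45.9 CPM in PSC, against 1.6, 2.92 and 4.34 CPM in PSCN. The order of the PSC libraries was the same for CD79A, CD79B, BLK, BANK1 and IGHD, highest in library 3 and lowest in library 2, while IGKC, IGHA and IGHG1 were highest in library 1. The pan-leukocyte gene PTPRC overlapped between groups, at 88.5, 97.8 and 156.2 CPM in PSC, against 70.5, 57.7 and 115.4 CPM in PSCN (log2 fold change -0.49, SE 0.34). T cell genes were negative in 12 of 12, with 3 of 12 separated and a median of -1.14, which was -0.56 without PSC library 3. Macrophage genes were negative in 7 of 10, with 0 separated and a median of -0.16, which was 0.38 without PSC library 3. Their part in the differences of the antibody genes was not tested.

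Genes of germinal centres, where B cells mature, had values of both signs. GCSAM, a germinal centre B cell gene, stood at 2.14, 1.62 and 2.41 CPM in PSC, against 0.74, 0.34 and 0.71 CPM in PSCN (log2 fold change -1.78, SE 0.42, edgeR adjusted p = 0.183). RGS13, of the same list, had 32, 51 and 19 counts in PSC and 0 in each PSCN library. Which cells it came from was not tested. BCL6, which many cell types express, differed by 0.08 (SE 0.11), and the polymerase POLH was higher in PSCN, at 0.87 (SE 0.20). Of this list of 10 genes, 3 were separated in the lower direction (background 13.4%) and 2 in the higher (background 15.2%).

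Of 16 genes for recruitment and survival of plasma cells, 5 were separated in the lower direction (background 13.4%) and 2 in the higher (background 15.2%), with a median of -0.95. TNFSF13B, the survival factor BAFF, stood at 11.7, 7.04 and 13.0 CPM in PSC, against 5.58, 3.49 and 6.2 CPM in PSCN (log2 fold change -1.06, SE 0.35). CXCL12, which retains plasma cells in tissue, was at 283.1, 151.1 and 52.5 CPM in PSC, against 62.1, 42.5 and 35.8 CPM in PSCN (-1.79, SE 0.61), with PSC library 3 below PSCN library 1. LTB had -1.67 (SE 0.57) and CCR9 -1.75 (SE 0.59). The 2 genes separated in the higher direction were IL6 and TGFB1. IL6 stood at 0.32, 0.66 and 0.71 CPM in PSC, against 1.59, 0.88 and 3.33 CPM in PSCN (1.78, SE 0.61). TGFB1 had 0.66 (SE 0.27). CCL28, the epithelial chemokine that draws IgA plasma cells to mucosa, was looked at after its values were seen. It stood at 8.74, 44.2 and 84.0 CPM in PSC, against 2.45, 1.36 and 12.2 CPM in PSCN (-3.10, SE 1.14), and PSC library 1, with the highest IGHA, had less of it than PSCN library 3. Its receptor CCR10 was at 0.42 to 1.82 CPM in all libraries, with a mean of 1.19 CPM in each group.

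Antibody receptors other than PIGR had values of both signs: of 9 tested genes of this list, PIGR included, 5 were negative and 4 positive, and the median was -0.39. FCER2, the low-affinity IgE receptor of B cells, stood at 14.2, 10.01 and 17.6 CPM in PSC, against 1.33, 3.61 and 5.12 CPM in PSCN (log2 fold change -2.06, SE 0.54). FCMR, the IgM receptor of lymphocytes, had -1.64 (SE 0.56), and FCAMR, a receptor for IgA and IgM, -0.61 (SE 0.27). FCGR2B at 0.76 (SE 0.35) and FCER1G at 0.68 (SE 0.34) were above 0, with groups that overlapped. No gene of this list passed the adjusted threshold.

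The genes whose log2 levels followed JCHAIN most closely over the 6 libraries, immunoglobulin genes left out, were WDR86, SLC6A20, GM8113, TMIGD3 and PTGER2. Those closest to PIGR were GM12216, 5033417F24RIK, SIDT1, MLLT6 and TMC5. Pearson's r served as the measure and was 0.989 or higher for all 10 of them. It describes 6 points that fall into 2 groups, and the genes were picked as the highest among tested genes outside the immunoglobulin genes. SLC6A20, an amino acid transporter, stood at 13.2, 21.6 and 13.1 CPM in PSC, against 2.52, 4.77 and 9.27 CPM in PSCN. SIDT1, a membrane protein, stood at 18.9, 26.4 and 49.0 CPM in PSC, against 4.36, 1.44 and 13.5 CPM in PSCN.

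In the authors' deposited table the same direction stands for all 10 genes, with adjusted p under 0.05 for 7 of them, where 8.1% of the genes with an adjusted p were called lower. Its adjusted p for the 10 genes equal those of the DESeq2 fit above, so it is not a separate test. Log2 fold changes in the authors' deposited table were -3.039 for IGHM (adjusted p = 4.74e-09), -2.027 for IGHA (adjusted p = 0.007) and -0.871 for IGHG3 (adjusted p = 0.572).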

How the data were processed

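Total RNA libraries of 6 biopsies were stranded and read at 76 bases, per the labels' protocols. GRCm38, DESeq2, HISAT2, StringTie and Trimmomatic are listed, without versions or roles, per the submitters' processing notes. The authors deposited estimated counts per symbol as whole numbers, and DESeq2 columns per the file headers: a mean normalized signal, log2 fold changes with SE, a Wald score and p-values. The strand setting of the counting step and the annotation were not stated in labels or headers. Columns C1 to C3 and N1 to N3 were taken as PSC and PSCN replicates from their letter and number, which no label states outright. Symbols partly follow human naming, so 6 listed symbols were looked up under another name (TP63 for TRP63, FCER2 for FCER2A, CYP2F1 for CYP2F2, FCGR1A for FCGR1, HLA-DOB for H2-OB, CCL21 for CCL21A).

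The 46937 symbols were filtered with filterByExpr (21201 tested), scaled by TMM and fitted in edgeR 4.0.16 (R 4.3.3; glmQLFit, glmQLFTest), and p-values were Benjamini-Hochberg adjusted with 0.05 as threshold. SE was derived as the fold change on the log2 scale over the root of the F statistic. The planned test for counts was used on these whole-number estimates. Fits were tested on simulated data. Levels are CPM on TMM-scaled library sizes. Shares were compared with exact two-sided permutation tests (scipy 1.17.1). Exon lengths and transcripts came from GENCODE M21, and the promoter from RefSeq. Alternatives used DESeq2 1.42.0, limma 3.58.1 and other settings named at the end. Named genes were the 10 members, at most 4 genes with the smallest p of each list, the leading variable segments and the 5 genes most like JCHAIN or PIGR, beside genes said to be picked otherwise. BCL6, LTF, SCGB1A1, IGHE, FCGR2B, FCER1G, CCR10, IL6, TGFB1, TNFRSF13B and DERL3 were also named after their values were seen. Some genes that were looked at are not reported here. The members and lists were chosen with earlier results of these data known.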

Additional observations from a re-analysis of the deposited data

How the results depend on the processing

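Over 16 alternatives, the 160 values of the 10 genes kept their direction except for 3: IGHG1 without PSC library 1 (range 0.17 to -2.34 over libraries left out), IGHG2C without it (0.25 to -2.16) and IGHG3 with sex as a covariate (1.89). In 13 values the adjusted threshold was passed that was not passed with edgeR on all libraries. The number of genes past it was 1 there, 3 with a minimum of 1 CPM in 3 libraries, 2730 with DESeq2, 3026 with limma-voom with sample quality weights, 0 without weights, 0 with sex as a covariate, and 0 to 1946 when each library was left out, the latter without PSC library 3. The share of IgE changed direction with summed counts (-0.00764 percentage points) and per kilobase (-0.000259), and over libraries left out it ran from -0.0329 to 0.0325, that of IgG2b from -1.79 to 0.694, of IgG2c from -0.492 to 15.1 and of IgG3 from -0.0293 to 1.78; the cause was not tested. With the replicate number as a block, 0 genes passed, IGHM was at -2.92 and the IgG share differed by 18.8 points. Same-numbered libraries correlated at 0.186, -0.053 and 0.016 in their deviations from the group means, and not every library correlated best with its own number. With 3 libraries in each group, these correlations cannot decide whether the numbers pair the libraries. Depth limits IgE and TNFRSF17, which had few counts.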
